A study of Spodoptera frugiperda with 3 samples.

Results

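The Sf-15 library, from Sf9 cells transfected with the overexpression vector of the small nucleolar RNA (snoRNA) Sf-15, was compared with the ASO library, from Sf9 cells transfected with an antisense oligonucleotide of Sf-15. The pair sets overexpression against repression of Sf-15 with transfected cells on both sides. The sample labels write Bm-15 for the snoRNA. Sf9 is a continuous cell line from the ovary of the fall armyworm *Spodoptera frugiperda*, and the cells of every library were of passage 15-18. The vector, pBac[A3-EGFP-A3-Sf-15], drives Sf-15 by the *actinA3* promoter and holds an EGFP gene under the same promoter. The ASO is a modified oligonucleotide that directs RNase H to its target. The Sf-15 and ASO libraries thus differ in the intended Sf-15 level and also in what was transfected, a plasmid with EGFP or an oligonucleotide. The effects of these cannot be told apart here. The labels give 2 μg of plasmid or oligonucleotide for a transfection. The study's methods give the oligonucleotide instead as a concentration, so its dose is uncertain here. The time of harvest for sequencing is not given in the sources used here. Normal, untransfected Sf9 cells gave the Sf9 library, which is shown here as the third level. Each of the 3 conditions had 1 library, no library of cells transfected with a control plasmid or a control oligonucleotide was analysed here, and every test below therefore compares libraries and not conditions.

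C/D box snoRNAs are short nuclear RNAs that hold a set of core proteins, among them the methyltransferase fibrillarin, and guide it by base pairing to the positions of ribosomal and other RNAs that receive a 2′-*O*-methyl group. Some members of the class have been tied to other steps of RNA metabolism and to cell growth. An antisense oligonucleotide that forms a DNA and RNA hybrid brings RNase H to the RNA strand, which acts also in the nucleus, where snoRNAs reside.

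RNA was counted on unigenes, the transcripts that the authors assembled de novo from the reads. Unigenes with at least 10 raw fragments in the Sf-15 library or the ASO library were compared, which held for 37695 of 42041 unigenes (89.7%). At the border, 838 of them had a larger count of exactly 10 fragments, and 744 unigenes with a larger count of exactly 9 were left out. The raw fragments summed to 18.0 M in Sf-15, 19.7 M in ASO and 19.6 M in Sf9, and the compared unigenes held 99.9% of those of Sf-15, 99.9% of those of ASO and 99.8% of those of Sf9. They were 200 to 32587 nt long, with a median of 579 nt. Their median level was 3.55 FPKM in Sf-15, 4.37 FPKM in ASO and 4.04 FPKM in Sf9, where FPKM is the count of fragments divided by the length in kilobases and by the mapped fragments of the library in M (mega). Gene names are not paired with the assembly names of the unigenes, so neither Sf-15, EGFP nor a marker of the ovarian origin could be looked up, and the success of overexpression and repression was not checked in these libraries. For the same reason no function is given for most of the unigenes below.

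Most unigenes had a lower level in Sf-15 than in ASO, by a small amount. The log2 ratio of FPKM, Sf-15 to ASO, had a median of -0.28, which is a fold of 0.822, and quartiles of -0.66 and 0.03. It was below 0 in 27481 unigenes (72.9%) and above 0 in 10214. The exact 95% interval of the ratio, which like every interval and p here covers counting error only, lay wholly below 0 in 11194 unigenes (29.7%) and wholly above 0 in 1732 (4.59%). Large differences were rare, since 32049 unigenes (85.0%) were within 1 log2 unit of 0. The 1st percentile of the ratio was -2.28 and the 99th was 1.45.

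The size of this imbalance depended on the zero point. FPKM sets each level against all mapped fragments of its library, so that a library in which a few transcripts take more fragments shows lower FPKM for all others. With the median ratio of the compared unigenes set to 0, which added 0.28 to every log2 ratio, the exact interval lay wholly below 0 in 4954 unigenes (13.1%) and wholly above 0 in 6240 (16.6%). Setting the median to 0 by its nature brings the 2 sides of this count closer together.

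A unigene was called when its log2 ratio was above 1 in size and the adjusted p of a two-sided exact binomial test of its fragments against the library totals was at most 0.001. By this rule 82 unigenes (0.218% of those compared) had a higher level in Sf-15 than in ASO and 962 (2.55%) had a lower one, and 92.1% of the calls were lower. With the median ratio set to 0, 196 unigenes (0.52%) were higher and 250 (0.663%) lower, so that 56.1% of the calls were lower. By construction the 82 higher calls were among the 196 and the 250 lower calls among the 962. Without the limit on p, 914 unigenes (2.42%) were higher and 4732 (12.6%) lower by the limit on the ratio. With 1 library a side the spread between cultures is not known, and under edgeR's exact test with an assumed coefficient of variation of 0.2 only 6 higher and 0 lower calls were left.

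**Figure D1:**
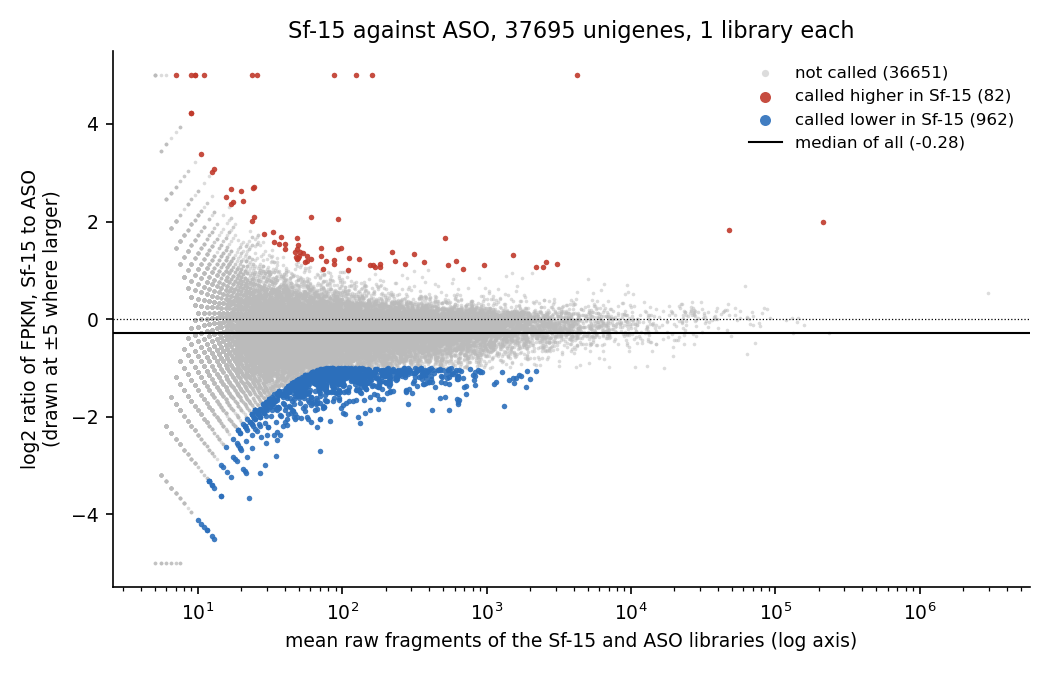
Log2 ratio of FPKM, Sf-15 to ASO, of each of the 37695 unigenes (y axis, drawn at ±5 where larger) against its mean raw fragments in the Sf-15 and ASO libraries (x axis, log scale). Grey points were not called, red points are the 82 unigenes called higher in Sf-15 and blue points the 962 called lower; the solid line is the median of -0.28 and the dotted line is 0, and the cloud lies mostly below 0 and narrows with the number of fragments.

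Unigenes seen in practice in 1 library only were found on the Sf-15 side. There were 18 compared unigenes with 0 fragments in Sf-15, with at most 15 fragments in ASO. A further 16 had 0 fragments in ASO, with up to 250 fragments in Sf-15. With at least 100 fragments in one library and at most 3 in the other, 4 unigenes were present in Sf-15, against 0 in ASO. The 4 were Unigene30391, Unigene30392, Unigene30393 and Unigene30205.

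These 4 unigenes were also the ones that changed most of all unigenes called higher with at least 100 fragments in either library, ranked by the change in log2(FPKM + 1). Unigene30391 (1439 nt) had 8444 fragments in Sf-15, against 3 in ASO and 4 in Sf9, and its log2 ratio of Sf-15 to ASO had an exact 95% interval of 10.04 to 13.87. Unigene30392 (234 nt) had 322 fragments in Sf-15, against 1 in ASO and 0 in Sf9, with an interval of 5.97 to 13.77. The third, Unigene30393 (479 nt), had 250 fragments in Sf-15 and 0 in both ASO and Sf9, with a lower limit of the interval of 6.20 and no upper limit. Unigene30205 (1243 nt) had 173 fragments in Sf-15, against 1 in ASO and 0 in Sf9, with an interval of 5.07 to 12.88. All 4 were thus at or near 0 in the ASO and the untransfected cells alike, and they were the only calls left under edgeR's exact test with an assumed coefficient of variation of 0.4. Whether any of them holds sequence of the transfected vector was not tested.

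The other 6 unigenes named by this rule were present in both transfected libraries. CL1590.Contig2 (1047 nt) had 17689 FPKM in Sf-15, against 4464 FPKM in ASO and 1300 FPKM in Sf9, a log2 ratio of Sf-15 to ASO of 1.99 (1.98 to 2.00). Unigene7594 (322 nt) had 131 FPKM in Sf-15, 41.2 FPKM in ASO and 93.7 FPKM in Sf9, with a ratio of 1.67 (1.46 to 1.88). CL1676.Contig2 (1263 nt) had 148 fragments in Sf-15, 39 in ASO and 52 in Sf9, with a ratio of 2.06 (1.54 to 2.60). The untransfected level was below both transfected levels for the first of them and lay between them for the other 2. For CL1676.Contig2 the exact intervals of its share of fragments in ASO and Sf9 overlapped, so the order of these libraries was within counting error. Unigene24276 (263 nt) had 310 fragments in Sf-15 and 131 in ASO, a log2 ratio of 1.37 (1.08 to 1.68), and 0 fragments in Sf9. CL1137.Contig2 (847 nt) had 138 FPKM in Sf-15, 55.7 FPKM in ASO and 6.33 FPKM in Sf9, with a ratio of 1.31 (1.19 to 1.42). Unigene8033 (602 nt) had 12.9 FPKM in Sf-15, 4.71 FPKM in ASO and 14.6 FPKM in Sf9, with a ratio of 1.45 (0.997 to 1.93). Unigene24276 and CL1137.Contig2 were therefore higher in both transfected libraries than in Sf9 and highest in Sf-15. Unigene8033 was lower than Sf9 in ASO. In Sf-15 it had 140 fragments, against 172 in Sf9, and the exact intervals of its share of fragments in these libraries overlapped. Its place in Sf-15 against Sf9 was thus within counting error.

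The 10 unigenes named on the lower side all had fragments in each library. Unigene16590 (234 nt) had 10.9 FPKM in Sf-15, against 47.8 FPKM in ASO and 26.4 FPKM in Sf9, a log2 ratio of Sf-15 to ASO of -2.13 (-2.62 to -1.67). Unigene28728 (908 nt) had 1.04 FPKM in Sf-15, 6.81 FPKM in ASO and 1.29 FPKM in Sf9, with a ratio of -2.71 (-3.54 to -1.97). Its level in Sf-15 was close to that in Sf9, with 17 fragments in Sf-15, 122 in ASO and 23 in Sf9. CL3566.Contig1 (262 nt) had 5.30 FPKM in Sf-15, 22.0 FPKM in ASO and 10.7 FPKM in Sf9, with a ratio of -2.06 (-2.74 to -1.42). Unigene5241 (2152 nt) had 166 fragments in Sf-15, 666 in ASO and 274 in Sf9, with a ratio of -1.87 (-2.13 to -1.62). In each of these 4 the untransfected level was between the transfected ones.

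Unigene19814 was the longest of the 10, at 6243 nt, and had 547 fragments in Sf-15, 2074 in ASO and 1366 in Sf9. Its log2 ratio of Sf-15 to ASO was -1.79 (-1.93 to -1.65), the narrowest interval of the 10. Unigene12714 (881 nt) had 7.75 FPKM in Sf-15, 25.8 FPKM in ASO and 4.69 FPKM in Sf9, with a ratio of -1.74 (-2.04 to -1.45). It was the only one of the 10 with the Sf9 level below both transfected levels. The remaining 4 were Unigene6413, Unigene1315, Unigene21439 and Unigene21560, with 3.46 to 6.08 FPKM in Sf-15, 12.6 to 21.1 FPKM in ASO and 6.11 to 9.38 FPKM in Sf9. Their log2 ratios ran from -1.87 to -1.80, and the Sf9 level was between the transfected levels in all 4. For Unigene6413, Unigene1315 and Unigene21439 the exact interval of the share of fragments in Sf9 overlapped with that of a transfected library. The 10 unigenes were all still called with the median ratio set to 0.

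**Figure D2:**
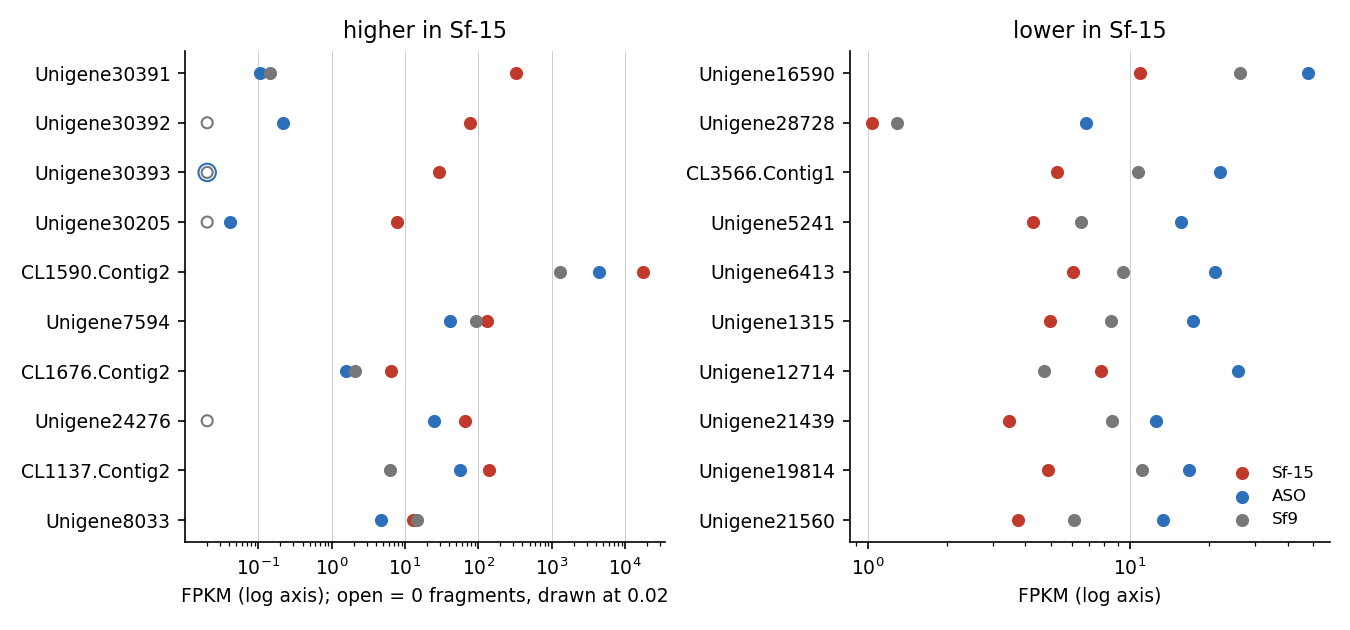
FPKM (x axis, log scale) of the 10 named unigenes higher in Sf-15 (left) and the 10 lower in Sf-15 (right), with 1 point for each of the Sf-15 (red), ASO (blue) and Sf9 (grey) libraries; open circles are 0 fragments, drawn at 0.02 FPKM. By the order of the FPKM values alone, the Sf9 level lies between the transfected levels in 9 of the 10 lower unigenes and in 4 of the 10 higher ones. Of these 4, Unigene30393 was at 0 in both ASO and Sf9, and Unigene30391 had 3 fragments in ASO and 4 in Sf9. The exact intervals of the share of fragments in Sf9 and in a transfected library overlapped for CL1676.Contig2. They also overlapped for Unigene28728, Unigene6413, Unigene1315 and Unigene21439 among the lower ones, so these counts are not compared.

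The called unigenes with the most fragments were also listed, chosen after their values were seen. Those named above were ranked by the size of their change, so the ratios are not compared with theirs. On the higher side, next to CL1590.Contig2, CL1590.Contig1 and Unigene30391, CL1291.Contig2 (1966 nt) had 115 FPKM in Sf-15, 52.6 FPKM in ASO and 7.38 FPKM in Sf9, with a log2 ratio of Sf-15 to ASO of 1.13 (1.05 to 1.21). CL3255.Contig1 (678 nt) had 286 FPKM in Sf-15, 127 FPKM in ASO and 703 FPKM in Sf9, with a ratio of 1.16 (1.08 to 1.25). Unigene1843 (740 nt) had 241 FPKM in Sf-15, 115 FPKM in ASO and 105 FPKM in Sf9, with a ratio of 1.07 (0.98 to 1.15). Against the untransfected cells CL1291.Contig2 was thus higher in both transfected libraries, CL3255.Contig1 was lower in both, and Unigene1843 in ASO was close to Sf9. Unigene13912 (1545 nt) had 2898 fragments in Sf-15, 1511 in ASO and 3 in Sf9, with a ratio of Sf-15 to ASO of 1.07 (0.98 to 1.16).

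On the lower side the calls with the most fragments were longer unigenes. CL1993.Contig2 (2605 nt) had 1325 fragments in Sf-15, 3057 in ASO and 1981 in Sf9, with a log2 ratio of Sf-15 to ASO of -1.07 (-1.17 to -0.98). Unigene19866 (4364 nt) had 1114 fragments in Sf-15, 2861 in ASO and 1505 in Sf9, with a ratio of -1.23 (-1.33 to -1.13). Unigene248 (6346 nt) had 966 fragments in Sf-15, 2765 in ASO and 1017 in Sf9, with a ratio of -1.38 (-1.49 to -1.28). The third was still called with the median ratio set to 0, and the first and second were not.

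Under scaling by totals, the place of the level in untransfected cells differed between the called sets. Of the 962 lower calls, Sf9 lay between Sf-15 and ASO, or equal to one of them, in 742 (77.1%), below both in 197 (20.5%) and above both in 23. Of the 82 higher calls it lay between in 42, below both in 22 and above both in 18. Over all compared unigenes Sf9 lay between in 32.3%, above both in 40.1% and below both in 27.6%. A larger distance between 2 libraries leaves more room for the third, so these shares are a description and were not tested. They moved with the scaling. Totals without cluster CL1590, a setting chosen after seeing the data, were applied to unigenes with a fragment in each library. Sf9 then lay between in 54.0% of the lower calls, 58.6% of the higher calls and 27.8% of all compared unigenes. It lay below both in 44.5% of the lower and 28.6% of the higher calls. With each median ratio to Sf9 set to 0, it lay between in 58.8% of the lower and 61.4% of the higher calls. The larger share between for the lower calls was thus not seen under these settings.

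For the lower calls the ASO library stood farther from Sf9 than the Sf-15 library did. Their median level was 2.60 FPKM in Sf-15, 6.71 FPKM in ASO and 3.35 FPKM in Sf9. Of the 961 lower calls with a fragment in all 3 libraries, Sf9 was nearer Sf-15 on the log2 scale in 708 (73.7%) and nearer ASO in 253, against 53.5% nearer Sf-15 over all compared unigenes. With totals without CL1590 these shares were 87.4% of the lower calls and 62.3% of all. With each median ratio to Sf9 set to 0 they were 77.7% and 60.9%. Under scaling by totals the median log2 ratio of the lower calls to Sf9 was -0.38 for Sf-15 and 0.99 for ASO. For the higher calls the median level was 9.35 FPKM in Sf-15, 2.60 FPKM in ASO and 4.58 FPKM in Sf9, and over the 70 with a fragment in each library the median log2 ratio to Sf9 was 0.73 for Sf-15 and -1.09 for ASO. For these 70 the medians were 1.04 for Sf-15 and -0.91 for ASO with totals without CL1590. They were 0.96 and -1.18 with each median ratio to Sf9 set to 0. Which library stood farther from Sf9 in the higher calls thus depended on the scaling. The ratios of Sf-15 and ASO share the Sf9 library, and the calls were chosen on the distance of Sf-15 and ASO.

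Of the 2413 unigenes with a mean of at least 1000 fragments, 26.9% had a log2 ratio above 0, against 27.1% of all compared unigenes. The 10 unigenes with the highest mean FPKM of the transfected libraries differed from this, with 9 ratios above 0 and 1 below. Together they took 24.9% of the fragments of Sf-15, 17.2% of those of ASO and 5.46% of those of Sf9. Unigene23439 (310 nt), the most abundant, had 24679 FPKM in Sf-15, 24134 FPKM in ASO and 29122 FPKM in Sf9, with a ratio of Sf-15 to ASO of 0.03 (0.02 to 0.04). Unigene11692 (446 nt) had 4670 FPKM in Sf-15, 4659 FPKM in ASO and 4884 FPKM in Sf9, and its ratio of 0.00 (-0.02 to 0.02) was the only one of the 10 whose interval held 0. Unigene16649 (482 nt) had 8487 FPKM in Sf-15, 5303 FPKM in ASO and 12821 FPKM in Sf9, with a ratio of 0.68 (0.66 to 0.69). The one lower in Sf-15 was Unigene21105 (1367 nt), with 8170 FPKM in Sf-15, 10004 FPKM in ASO and 590 FPKM in Sf9 and a ratio of -0.29 (-0.30 to -0.28), which is close to the median of all unigenes. Under scaling by totals, none of the 10 had an Sf9 level between the transfected ones, with Sf9 above both in 6 and below both in 4. These places depend on the scaling, since another one shifts the ratios to Sf9. With the median ratio set to 0, Unigene11692 stood at 0.29 and Unigene23439 at 0.32.

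Cluster CL1590 gave 3 of these 10 unigenes and carried the largest single shift of fragments. CL1590.Contig3 (8423 nt) took 18.9% of the fragments of Sf-15, 12.9% of those of ASO and 1.84% of those of Sf9. CL1590.Contig2 (1047 nt) took 1.85% of Sf-15, 0.467% of ASO and 0.136% of Sf9. CL1590.Contig1 (380 nt) took 0.408% of Sf-15, 0.115% of ASO and 0.0305% of Sf9. The exact 95% binomial intervals of these shares were at most 0.0361 percentage points wide. All contigs of the cluster were higher in Sf-15 than in ASO and lowest in Sf9, but by unequal amounts, with log2 ratios of Sf-15 to ASO of 0.54 for Contig3, 1.99 for Contig2 and 1.83 for Contig1. Only Contig2 and Contig1 were called. The cluster together took 21.1% of Sf-15, 13.5% of ASO and 2.01% of Sf9, a log2 ratio of Sf-15 to ASO of 0.64. Leaving the cluster out of the totals added 0.13 to every other log2 ratio and left 122 higher and 497 lower calls, so that 80.3% of the calls were lower. The cluster thus covered less of the distance to the median than the 0.28 needed to bring it to 0.

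**Figure D3:**
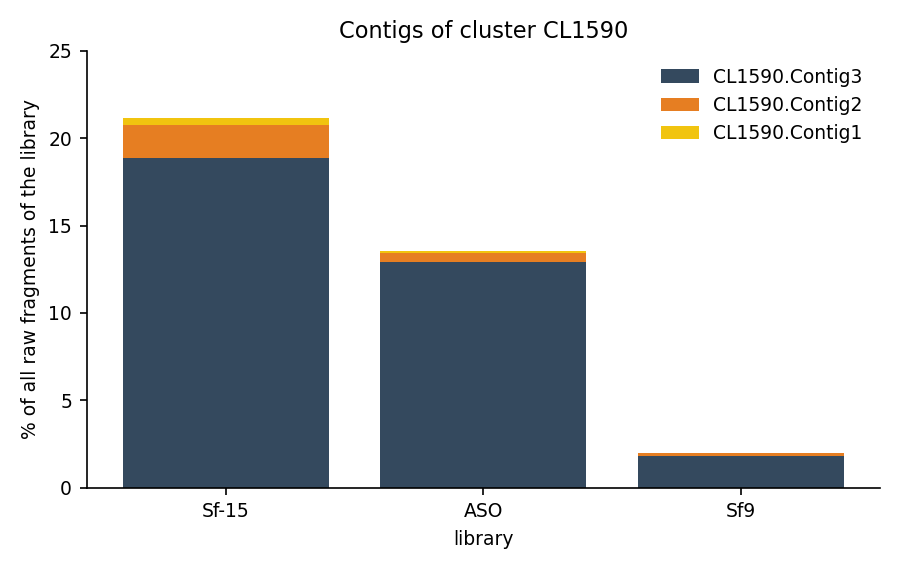
Share of all raw fragments of each library (y axis, %) taken by the 3 contigs of cluster CL1590 in the Sf-15, ASO and Sf9 libraries (x axis), stacked by contig. The cluster took 21.1% of Sf-15, 13.5% of ASO and 2.01% of Sf9, most of it in Contig3.

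The ratio differed between classes of abundance. Unigenes with a mean of under 30 fragments in the transfected libraries had a median log2 ratio of -0.40 (n = 15156), those with 30 to under 100 fragments -0.31 (n = 10193), those with 100 to under 300 fragments -0.25 (n = 5929), those with 300 to under 1000 fragments -0.19 (n = 4004) and those with at least 1000 fragments -0.14 (n = 2413). The distance of the quartiles narrowed over the same classes from 1.06 to 0.33, and the median width of the exact 95% interval from 2.33 to 0.19. In the lowest class the interval of a single unigene was thus wider than the distance of the quartiles, and in the highest class it was narrower. The highest class held 8 higher (0.332%) and 14 lower calls (0.580%). The class of 30 to under 100 fragments held 31 higher (0.304%) and 492 lower calls (4.83%). Over all compared unigenes the shares were 0.218% and 2.55%. The share of higher calls was thus similar in these classes, and that of lower calls was not.

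The abundant classes also differed by length. FPKM divides by the length of the unigene, which is the same in both libraries and cancels in the ratio. Among unigenes with at least 1000 fragments, the median log2 ratio was 0.13 under 500 nt (n = 70), 0.08 at 500 to under 1000 nt (n = 310), -0.05 at 1000 to under 2000 nt (n = 810) and -0.26 at 2000 nt or more (n = 1223). The share with a ratio above 0 was 68.6% in the shortest and 8.42% in the longest of these classes. At 300 to under 1000 fragments the medians ran in the same order, at 0.00, -0.04, -0.16 and -0.34. At 100 to under 300 fragments they were -0.17, -0.16, -0.27 and -0.37. Under 100 fragments the longest class was again the lowest, at -0.45 both for 30 to under 100 fragments and for under 30 fragments. Among unigenes under 500 nt the median therefore ran from -0.40 in the class under 30 fragments, with the limit given above, to 0.13. Among those of 2000 nt or more it stayed between -0.45 and -0.26.

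Set against untransfected cells, the length pattern of the abundant unigenes was on the ASO side. In the class of at least 1000 fragments, the median log2 ratio of Sf-15 to Sf9 was -0.30 under 500 nt, -0.39 at 500 to under 1000 nt, -0.36 at 1000 to under 2000 nt and -0.35 at 2000 nt or more. The median log2 ratio of ASO to Sf9 over the same unigenes was -0.34, -0.46, -0.32 and -0.07. The medians of the length classes thus lay closer together in Sf-15 than in ASO, where the longest class was the highest. Their level against Sf9 depended on the scaling, while the distances between the classes do not. With totals without CL1590, a setting chosen after seeing the data that added 0.31 to each ratio of Sf-15 and 0.18 to each ratio of ASO, the medians from short to long were 0.01, -0.08, -0.04 and -0.03 for Sf-15 and -0.16, -0.28, -0.14 and 0.11 for ASO. Over all compared unigenes with a fragment in each library, the ASO medians under scaling by totals were 0.14, -0.01, -0.01 and 0.20. Those of Sf-15 were -0.21, -0.27, -0.24 and -0.20, so in ASO both the shortest and the longest class were higher than the rest. The ratios of Sf-15 and ASO share the Sf9 library, and RNA integrity was not analysed here.

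**Figure D4:**
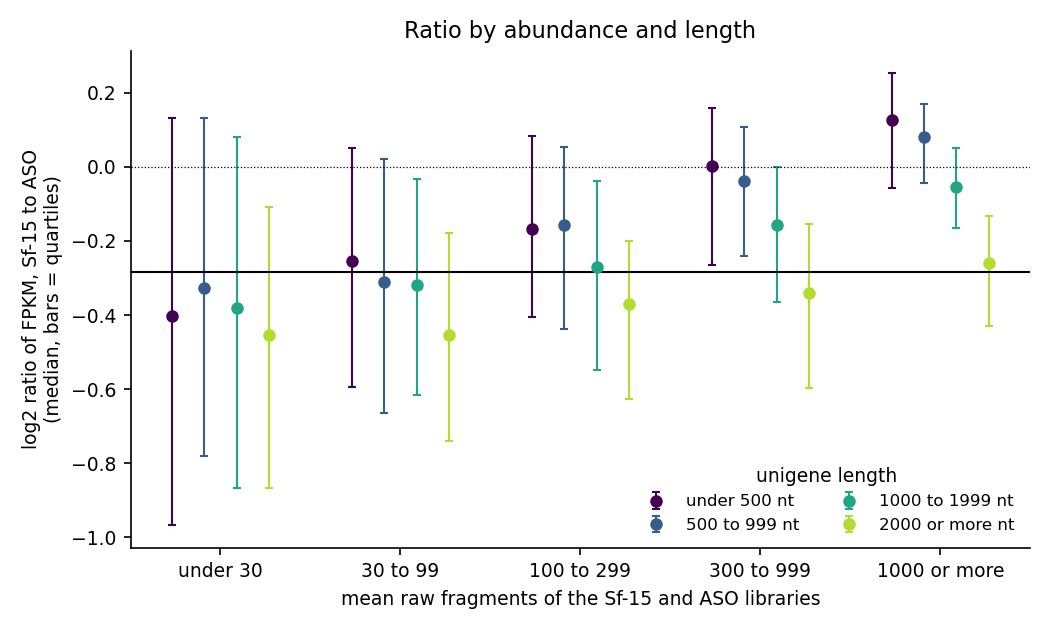
Median log2 ratio of FPKM, Sf-15 to ASO (y axis, points), with quartiles as bars, by class of mean raw fragments in the Sf-15 and ASO libraries (x axis) and by length of the unigene (colours). The solid line is the median of all 37695 unigenes, -0.28, and the dotted line is 0; the unigenes of 2000 nt or more have the lowest median in each class, and at 1000 fragments or more the medians run from 0.13 for the shortest to -0.26 for the longest.

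The shares of calls also differed with length. Under 500 nt, 46 of 16881 unigenes were higher (0.272%) and 210 lower (1.24%). At 500 to under 1000 nt 22 of 8192 were higher (0.269%) and 295 lower (3.60%). At 1000 to under 2000 nt 14 of 6981 were higher (0.201%) and 245 lower (3.51%). The share of higher calls was thus close to the 0.218% of all unigenes in these 3 classes, and the share of lower calls was smallest in the shortest. At 2000 nt or more 0 of 5641 were higher and 212 lower (3.76%) by the exact binomial test, although 10.9% of these unigenes had a ratio above 0. With the median ratio set to 0, the longest class had 6 higher and 42 lower calls. The median length was 456.5 nt for the higher calls and 940.5 nt for the lower calls.

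Contigs of 1 cluster are related sequences, such as variants of a transcript or copies of a gene, and may share fragments. The compared unigenes comprised 28249 single unigenes, with a median log2 ratio of -0.27, and 9446 contigs of 3772 clusters, with a median of -0.31. Of the single unigenes 69 were higher and 719 lower, and of the contigs 13 were higher and 243 lower. The 13 higher contigs lay in 12 clusters, of which 0 also held a lower call by the exact binomial test, and 2.57% of all contigs were called lower. Of the 2889 clusters with at least 2 compared contigs, 15 had every one called lower and 0 had every one called higher. The fragments of 210 contigs were equal to those of another contig of the same cluster in all 3 libraries, and 15 of these contigs were called, so that counts of unigenes are not counts of transcripts.

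Within some clusters the contigs differed in the sign of the ratio. CL453.Contig2 (666 nt) had 1275 fragments in Sf-15, 651 in ASO and 1 in Sf9, with a log2 ratio of Sf-15 to ASO of 1.10 (0.96 to 1.24), and was called. CL453.Contig1 (929 nt) had 222 fragments in Sf-15, 328 in ASO and 3 in Sf9, with a ratio of -0.43 (-0.68 to -0.18). Both were at 3 fragments or fewer in untransfected cells, and their intervals lay on opposite sides of 0 under scaling by totals. With the median ratio set to 0, CL453.Contig1 stood at -0.15 and its interval held 0. CL1676.Contig1, the partner of the called CL1676.Contig2, had 21 fragments in Sf-15, 33 in ASO and 16 in Sf9, and its ratio of -0.52 (-1.38 to 0.31) had an interval that held 0. In other clusters the contigs shared the sign of the ratio. CL3566.Contig2 (1477 nt) was called lower like its partner, with 227 fragments in Sf-15, 611 in ASO and 223 in Sf9 and a ratio of -1.30 (-1.52 to -1.07). CL1291.Contig1 had a ratio of 0.95 (0.86 to 1.04), below the 1.13 (1.05 to 1.21) of CL1291.Contig2, and these intervals did not overlap.

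Apoptosis is the ordered death of a cell carried out by caspases and held in check by inhibitor proteins, and calcium signalling through the phosphatase calcineurin is one of the routes that can feed into it. The study listed 21 unigenes of the apoptosis pathway for being above Sf9 in ASO and below Sf9 in Sf-15, on these same libraries. Their direction between Sf-15 and ASO was therefore fixed by the choice and is no finding. Of the 21, 20 had enough fragments to be compared. The other, CL2476.Contig2, had 0 fragments in Sf-15, 4 in ASO and 3 in Sf9. The names of the proteins are not paired with the unigenes in the files, so single functions are not given.

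The choice also favours larger differences, so the sizes are given as a description. The median log2 ratio of the 20 was -0.77, against -0.28 over all compared unigenes. Set against the median of all, it was -0.49. The median level was 6.85 FPKM in Sf-15, 11.7 FPKM in ASO and 8.14 FPKM in Sf9. A log2 ratio below -1 was reached by 8 of the 20 and the call rule by 5 (25%, against 2.55% of all compared unigenes), and with the median ratio set to 0 by 2, from which nothing is read because the list was chosen on these libraries. The exact interval lay below 0 in all 20 and below the median of all unigenes in 12 (60%). Of the 20, 17 were at least 1000 nt long and 8 at least 2000 nt, with a median length of 1932 nt. Over all compared unigenes the median log2 ratio was -0.21 at 1000 to under 2000 nt and -0.35 at 2000 nt or more. The part of length in the list's median was not tested.

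CL798.Contig2 (3295 nt) had the lowest ratio among those with more than 3 fragments in both libraries, with 4.67 FPKM in Sf-15, 15.2 FPKM in ASO and 4.93 FPKM in Sf9 and a log2 ratio of Sf-15 to ASO of -1.70 (-1.90 to -1.51). Unigene15078 (3954 nt) had 11.6 FPKM in Sf-15, 28.9 FPKM in ASO and 14.1 FPKM in Sf9, with a ratio of -1.32 (-1.43 to -1.20). These were the 2 of the list still called with the median ratio set to 0. Both were nearer to Sf9 in Sf-15 than in ASO. The other 3 called were Unigene18724 with a ratio of -1.26 (-1.63 to -0.90), CL2078.Contig2 with -1.24 (-1.64 to -0.85) and Unigene22252 with -1.03 (-1.48 to -0.59). At the other end, CL3470.Contig2 (2529 nt) had 18.4 FPKM in Sf-15, 22.5 FPKM in ASO and 18.9 FPKM in Sf9. Its ratio of -0.29 (-0.42 to -0.16) was next to the median of all unigenes. Unigene18734 (1816 nt), the most abundant of the list, had 49.2 FPKM in Sf-15, 63.7 FPKM in ASO and 58.8 FPKM in Sf9, with a ratio of -0.37 (-0.47 to -0.28).

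**Figure D5:**
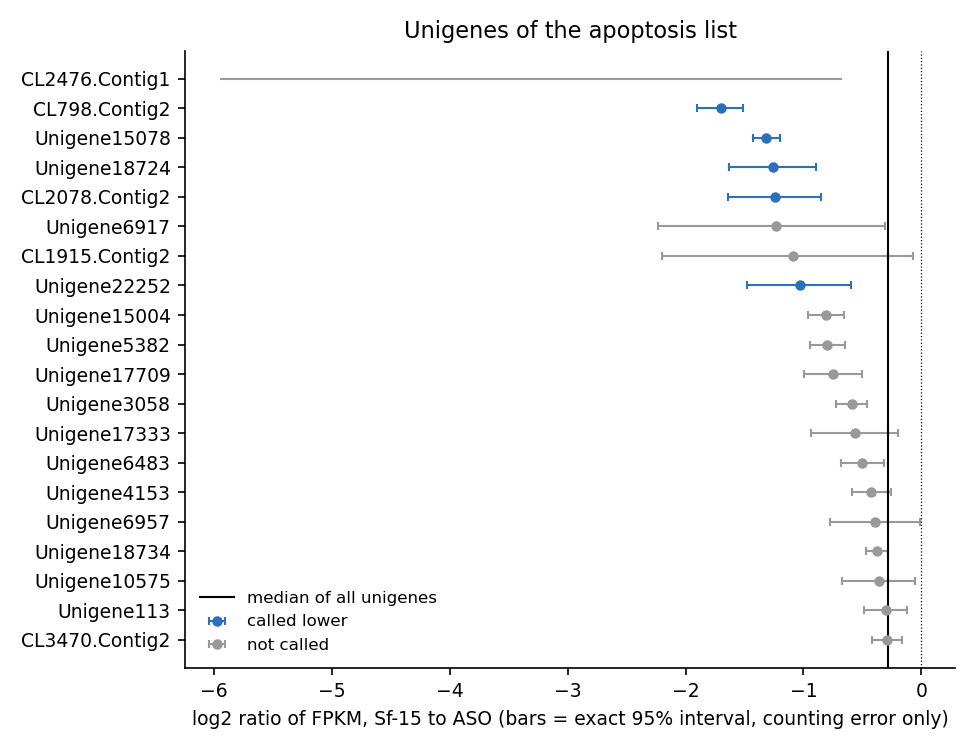
Log2 ratio of FPKM, Sf-15 to ASO (x axis), with its exact 95% interval from counting error only, of the 20 compared unigenes of the apoptosis list (y axis), which the study chose on these libraries by their direction. The 5 called unigenes are blue and the others grey, no point is drawn for the 1 with at most 3 fragments in Sf-15, the solid line is the median of all unigenes (-0.28) and the dotted line is 0; 12 intervals lie wholly below the median of all.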

How the data were processed

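The authors sequenced RNA of 3 cultures of Sf9 cells and assembled unigenes with Trinity, TGICL and Phrap. The labels name either poly(A) selection or removal of rRNA. The aligner and counter are not given in the sources used here. The deposited tables hold, per unigene, the raw fragments, which are counts without normalization, and the authors' FPKM, which is scaled to all mapped fragments. Their columns of log2 ratios, p-values, false discovery rates and direction were not used. The raw fragments summed to the totals in the headers in 3 of 3 libraries, and recomputed and deposited FPKM differed by at most 6.66e-05 of the value at 100 or more fragments.

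Tables were joined by unigene name, and 0 names matched a RefSeq gene. FPKM was recomputed from the fragments, with an FPKM of 0 replaced by 0.001. The exact binomial test was two-sided, and p-values were adjusted by Benjamini-Hochberg over the 42002 unigenes counted at all in Sf-15 or ASO. Named were, in each direction, the 10 with the largest change in log2(FPKM + 1) among called unigenes of 100 or more fragments in Sf-15 or ASO, at most 1 contig of a cluster, the 10 with the highest mean FPKM, and the apoptosis list. Log2 ratios are printed where both libraries have more than 3 fragments. Partners in clusters and the calls with the most fragments were chosen after their values were seen. The unigenes, lists and rules were chosen with earlier results of these data known. Alternatives were other scalings (TMM of edgeR 4.0.16, median-of-ratios of DESeq2 1.42.0, totals without CL1590, median set to 0), other minimums of fragments and limits, 1 FPKM added, contigs summed by cluster, and the exact test of edgeR with a coefficient of variation that was assumed. The exact binomial test was run on simulated libraries with 200 changed unigenes. Its pass limits were set on the run with counting error only, so this gives no check for the spread between cultures. Python 3.11.15, numpy 2.4.6, scipy 1.17.1, pandas 2.3.3, matplotlib 3.10.9 and R 4.3.3 were used.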

Additional observations from a re-analysis of the deposited data

How the results depend on the processing

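The 82 higher and 962 lower calls and the median log2 ratio of -0.28 depended on the scaling. TMM scaling gave 178 higher and 277 lower calls and a median of -0.024. Median-of-ratios scaling gave 188 and 266 calls and a median of -0.0085. The totals without CL1590 gave 497 lower calls and a median of -0.15. With the median ratio set to 0, 196 unigenes were higher and 250 lower. The limits moved the counts as well. At least 100 fragments in either library left 36 higher and 554 lower calls and a median of -0.22. With 1 FPKM added there were 532 lower calls and a median of -0.21. Without the limit on p, 914 were higher and 4732 lower. With the limit on the adjusted p at 0.05 there were 280 higher and 2329 lower calls, and with the log2 limit at 2 there were 28 higher and 99 lower ones. Summing the contigs of a cluster gave a median of -0.27. edgeR's exact test, adjusted as before, gave 6 higher and 0 lower calls with a coefficient of variation of 0.2 assumed, and 4 higher and 0 lower with 0.4. At an unadjusted p under 0.05 in that test, 2436 unigenes were lower past the log2 limit at 0.2 and 294 at 0.4. The median of the apoptosis list stayed below 0 under every alternative run on it. Nothing is read from this, because the list was chosen on these libraries by that direction. Of the named called unigenes of the apoptosis list, CL2078.Contig2, Unigene18724 and Unigene22252 lost the call with TMM, with median-of-ratios and with the median set to 0, and Unigene22252 also with the totals without CL1590. Both Unigene22252 and CL2078.Contig2 lost the call with 1 FPKM added. No paired analysis was possible because there was 1 library for each condition, and a replicate could not be left out.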
